A study of Sus scrofa and Rattus norvegicus with 8 samples.

Results

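The heat shock proteins and DNAJ co-chaperones of pig backfat were examined in 6 RNA-seq libraries. Members were every gene of the pig table whose symbol names a heat shock protein of the HSP90, HSP110, HSP70, HSP60, HSP10 or small heat shock families, or a DNAJA, DNAJB or DNAJC co-chaperone. The rule took 62 of the 25880 genes in the table, 24 with an HSP symbol and 38 with a DNAJ symbol. It also took HSPBP1 and HSPBAP1, which are partners of heat shock proteins and not chaperones themselves. Symbols of HSPA6, HSPB7 and DNAJC30 exist in the name table but have no row among the pig genes, so they have no value here. The set was chosen by measured values of these libraries, namely the high level of HSP70.2 in replicate 2, so that pattern is described and not tested.

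Each library came from the upper layer of backfat, the subcutaneous fat along the back, of a 2-year-old female Bama pig, a Chinese miniature breed. The study also holds 2 rat libraries of inguinal fat, whose genes carry no symbols and which were not used here. All 6 pigs formed a single group with no treatment, so no test between conditions exists and no p-value is given. Nothing in the labels separates the pigs by handling, time of death or litter, and replicate numbers are only names. All 11 adipocyte markers examined were present, with ADIPOQ, the adipokine adiponectin, at 2437 to 3746 and summed marker levels of 21449 to 37932 rescaled TPM.

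Heat shock proteins keep other proteins folded. HSP70 chaperones bind exposed stretches of unfolded clients and release them in a cycle driven by ATP, DNAJ proteins (the HSP40 family) deliver clients and start that cycle, and HSP110 proteins such as HSPH1 renew the bound nucleotide. HSP90 proteins finish the folding of kinases and receptors, while HSPD1 with its lid HSPE1 forms the folding chamber of mitochondria. Some of these genes are expressed at all times and others are induced when the transcription factor HSF1 is released under heat, lack of oxygen or other protein damage and binds heat shock elements, inverted repeats of the unit GAA, in their promoters.

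Expression is given as rescaled TPM. TPM are shares of a fixed total that correct for transcript length, so levels of different genes can be compared within a library. In the deposited values, named nuclear genes held 24.1 to 26.3% of the total in replicates 1, 2, 3 and 6 but 3.34% in replicate 4 and 4.73% in replicate 5, so each library's 14844 named nuclear genes were set to a total of 1000000. Replicates 4 and 5 still stood apart on this scale, with 9.05 and 5.71% of it in small RNA genes against 0.359 to 0.819% in the others. The deposited values hold no read counts, so the depth of the libraries is unknown and precision rests on the spread between pigs. In bulk tissue, fewer cells of a type and less RNA per cell cannot be told apart.

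HSP70.2, the stress-inducible HSP70 on which the rule turned, lies at chr7:23925929-23927854 on the forward strand of Sscrofa11.1. RefSeq gives it 1 exon, all of it coding, with the synonyms HSPA1A and HSPA1B, and places it inside the span of HSPA1L (chr7:23909960-23938678, reverse strand), a related HSP70 gene whose intron covers it. A search of the genome with the coding sequence of each matched member found a near copy for HSP70.2 and for none of the other 60, where near meant at least 95% identity over at least 90% of the coding bases in 1 stretch. That copy, at chr7:23915072-23916997, was 99.8% identical over the full length and has no RefSeq gene of its own. Hits within a gene's own span were not counted. The span of HSPA1L holds both HSP70.2 and the copy, so for HSPA1L the search could not report them. Reads of both loci can scarcely be told apart, and the sources used here do not say how the authors' transcript index held them, so the value of HSP70.2 may sum or split 2 genes.

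The sequences before these genes are shown first, since heat shock elements are the best known mark of the inducible members. Each line gives 30 bases of Sscrofa11.1 (RefSeq) read 5′ to 3′ on the gene's strand, chosen around the element nearest the gene start within 500 bases before it. Capitals mark the element. A 2-unit element is GAANNTTC or TTCNNGAA, which read the same on both strands, and a 3-unit element continues the alternation by another unit at the same spacing, so every 3-unit element also holds 2 overlapping 2-unit elements. The first 7 lines are members that stood at least 2-fold higher in replicate 2, and the next 3 are members that did not.
HSP70.2, chr7:23925629-23925658, forward: cgaaacctctgGAATATTCccgacctggca
HSPA1L, chr7:23938809-23938838, reverse: gactcccaaaaGAAGGTTCcaaacacctaa
HSPA8, chr9:49986794-49986823, reverse: cgggccccTTCTGGAAGGTTCtgaggccgg
HSPA4, chr2:135345548-135345577, forward: ctcctatttccTTCTGGAAgaggagctgct
HSPA4L, chr8:97088380-97088409, reverse: tttccagatctTTCTCGAAcccgcagctcc
DNAJA1, chr10:33445714-33445743, reverse: aaggggatccaGAAAGTTCtacgagctgca
HSPB1, chr3:10039660-10039689, reverse: ctcaaacaggaGAAGGTTCcagatgtgggc
HSP90AB1, chr7:39237095-39237124, forward: ccgcccccGAAGCTTCCAGAActaagcctc
HSPD1, chr15:101373707-101373736, reverse: cctccccgGAAAGTTCTGGAAcggcgcgca
HSPE1, chr15:101373708-101373737, forward: gcgcgccgTTCCAGAACTTTCcggggaggg

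HSPD1 and HSPE1 are neighbours that start 521 bases apart and point away from each other, and their lines show the same element read on opposite strands. Of the 61 members matched to a RefSeq protein-coding gene, 23 (37.7%) held a 2-unit element in the 500 bases before the gene start and 7 (11.5%) held a 3-unit element. Over all 20636 protein-coding genes with such a window the shares were 22.1 and 0.732%. In replicate 2, 10 members stood at least 2-fold above the median of the other 5 libraries, as did 5.73% of all named nuclear genes with a mean of at least 1 rescaled TPM. Of these 10 members, 7 held a 2-unit element and 1, HSPA8, a 3-unit element, whereas among the 48 members that passed the minimum level and were not higher there, 15 held a 2-unit element and 6 a 3-unit element. The shares with a 3-unit element were 10% of the members higher in replicate 2 and 12.5% of the others, those others being HSP90AB1, HSPD1, HSPE1, DNAJB5, DNAJB6 and DNAJB14. HSPH1, DNAJB1 and HSP90AA1 were higher in replicate 2 and held neither form in this window. A match is a description of the letters, not evidence of a bound site, and gene starts in RefSeq may miss part of a leader. For HSP70.2 the annotated start is the start codon, so its window includes the leader.

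**Figure D1:**
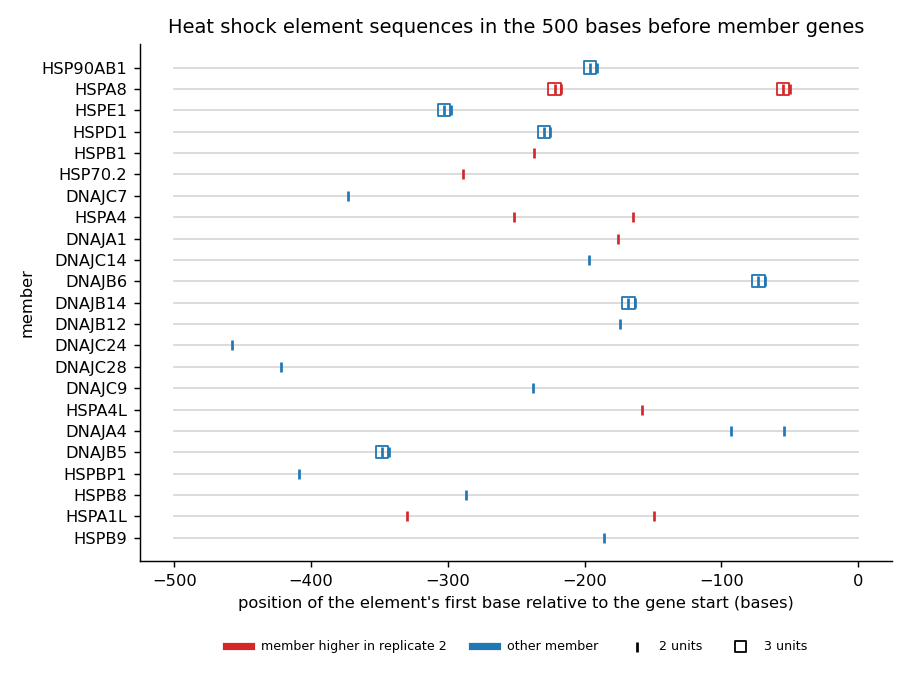
Positions of heat shock element sequences in the 500 bases before the start of the 23 members that hold 1, in order of mean level from the top. The horizontal axis is the position of the element's first base relative to the gene start, a vertical tick is a 2-unit element, a square a 3-unit element, red marks members higher in replicate 2 and blue the other members. Squares appear for 7 members, of which only HSPA8 is red.

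The chaperones were abundant in backfat. The 62 members held 0.783 to 0.939% of the rescaled TPM in replicates 1, 3, 4, 5 and 6 and 1.45% in replicate 2. Of the members, 59 had a mean of at least 1 rescaled TPM, 22 had a mean over 100, and 56 were above 0.1 deposited TPM in all 6 libraries. The median of the means was 51.4 for these 59 members and 25.5 for the 12130 named nuclear genes with the same minimum. The members below the minimum were DNAJC22, HSPB9 and HSPB3, with means of 0.351, 0.110 and 0.0314. HSPB9 was above 0 in replicate 3 only and HSPB3 in replicates 3 and 4 only.

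The cytosolic HSP90 genes were the most abundant members by mean. HSP90AA1, the stress-responsive form, was at 1206 ± 489.8 (SD, n = 6) and HSP90AB1, the constitutive form, at 844 ± 130.2 (SD, n = 6). The cognate HSP70 gene HSPA8 followed at 811 ± 503 (SD, n = 6), then the mitochondrial HSPE1 at 753 ± 466 (SD, n = 6) and HSPD1 at 535 ± 75.3 (SD, n = 6). HSP90B1, the HSP90 of the endoplasmic reticulum (ER), was at 505 ± 93.0 (SD, n = 6). HSP90AA1 was above HSP90AB1 in every library, with a ratio of 1.15 to 1.98. The order of each later pair of neighbours differed between libraries and is not fixed over pigs.

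Among the HSPB symbols the highest mean was that of HSPB6 at 442 ± 300.3 (SD, n = 6), a partner of contractile filaments, and HSPB1 at 329 ± 189 (SD, n = 6), whereas HSPB8 had a mean of 3.87. The small heat shock protein CRYAB, whose symbol the rule did not take, had a higher mean of 597. HSP70.2 had a mean of 310.1 ± 477 (SD, n = 6), an SD larger than its mean. Its mean describes no library well, since replicate 2 lay above it and all others below. The 5 DNAJ genes of highest mean were DNAJB4 (242), DNAJC7 (239), DNAJA2 (233), DNAJC19 (197) and DNAJC3 (179), which serve the cytosol in the first 3 cases, the mitochondrial import motor and the ER.

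**Figure D2:**
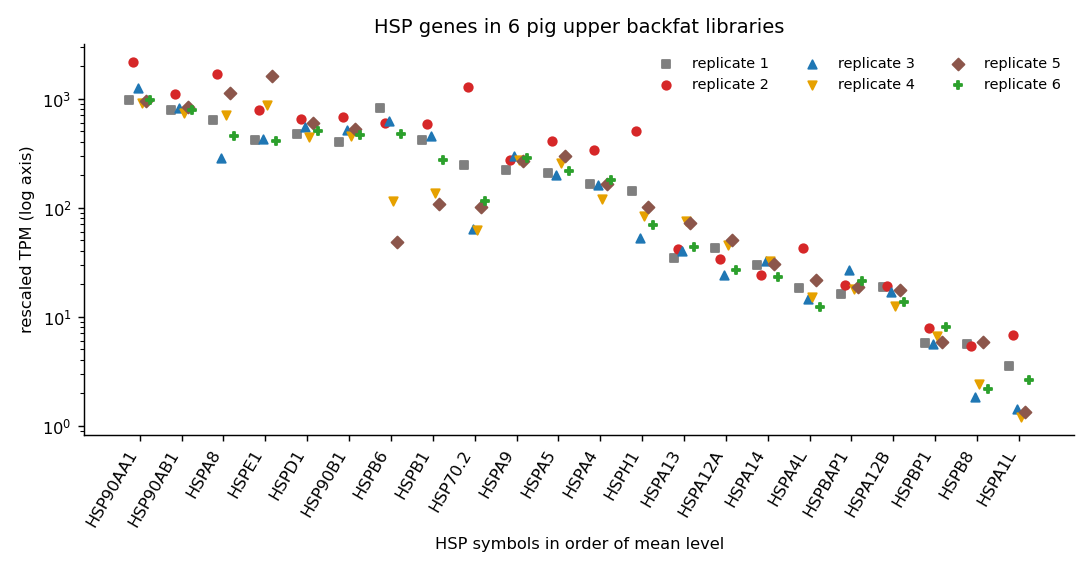
Rescaled TPM (vertical log axis) of the 22 HSP symbols with a mean of at least 1 in the 6 libraries, in order of mean level, with 1 symbol and colour per replicate. Replicate 2 (red circles) lies far above the rest for HSP70.2 at 1275 and HSPH1 at 502, and replicates 4 and 5 lie low for HSPB6 at 115 and 48.5.

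HSP70.2 was high in replicate 2. Its rescaled TPM in replicates 1 to 6 were 244, 1275, 64.0, 62.5, 101 and 114. Replicate 1 was second, and the other 4 libraries lay within 62.5 to 114. Replicate 2 was 12.7 times the median of the other libraries, a log2 difference of 3.65 with 1 added to each value, as in all differences given here. In the deposited TPM the values were 61.0, 307, 16.8, 2.09, 4.77 and 30.1, which keep replicate 2 at the top and put replicates 4 and 5 lowest. Over replicates 1, 2, 3 and 6 alone the log2 difference was 3.47, and leaving out any other single library gave 3.56 to 3.97. Among the 12130 genes tested, HSP70.2 had the fifth largest difference in replicate 2. It came after FAM240B, COMP, CPHL1 and SNORD38A and before SAL1, PHEROC, NPSR1, PCK1 and NR4A3. These ranks do not show that a gene was high in replicate 2 alone. FAM240B was at 47.9 there, at 36.6 and 38.8 in replicates 1 and 3, and at 0 in replicates 4 to 6. CPHL1 and PHEROC were highest in replicate 6, at 70.1 and 82.2. All the other genes named here were highest in replicate 2.

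A gene was called higher or lower in a library when its log2 difference from the median of the other 5 was at least 1 in size, that is 2-fold. In replicate 2, 10 of 59 members (16.9%) were higher, against 5.73% of all 12130 genes, and 0 members were lower, against 0.956%. Since HSP70.2 in this library chose the set and its relatives were in view, the count is a description. The share of all genes depended on which libraries formed the median. It rose to 13.4% without replicate 1 and 13.3% without replicate 6, with 11 members (18.6%) higher in each case, and fell to 3.03% without replicates 4 and 5, with 10 members (16.9%) higher, HSPB8 among them in place of HSPB1. At 1.5-fold the counts were 17 members (28.8%) against 19.0% of genes, and at 4-fold 3 members (5.08%) against 0.429%.

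The 3 members past 4-fold were HSP70.2, its nucleotide exchange factor HSPH1 and its partner DNAJA1. HSPH1 (chr11:7733874-7759528, reverse strand) was at 143, 502, 52.8, 83.3, 100.2 and 69.9 rescaled TPM in replicates 1 to 6, a log2 difference of 2.58 in replicate 2. DNAJA1 (chr10:33432529-33445556, reverse strand), a DNAJ of the cytosol that works with HSPA8, was at 158, 426, 92.5, 91.2, 151 and 95.8, a log2 difference of 2.14. For both, replicate 1 came second as it did for HSP70.2. DNAJB1 (chr2:64761672-64764482, forward strand), the inducible HSP40, was at 62.2, 243, 58.7, 62.6, 64.3 and 50.8, a log2 difference of 1.95. Here replicate 1 did not stand apart, since the 5 libraries besides replicate 2 spanned only 50.8 to 64.3.

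HSP90AA1 was at 969, 2177, 1237, 915, 957 and 978 rescaled TPM, a log2 difference of 1.17 in replicate 2. HSPB1, whose protein holds unfolded clients in solution, was at 416, 589, 451, 137, 108 and 273, a log2 difference of 1.11. Replicate 2 was the highest library for both, but for HSPB1 replicates 1 and 3 lay much closer to it than replicates 4 and 5. Without replicates 4 and 5 its log2 difference was 0.50, so its call was lost, and that of HSP90AA1 was lost under median-centring. HSPA4L, a testis-rich relative of HSPH1, was at 18.4, 42.2, 14.6, 15.2, 21.5 and 12.2, a log2 difference of 1.42. DNAJB4, another inducible HSP40, was also highest in replicate 2 at 373 against 180.0 to 260.2, and its log2 difference of 0.80 did not reach the call.

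These genes formed a list of 8 members known to be induced by heat in the cytosol. Of the 8, 7 were called higher in replicate 2 and 0 lower, against 5.73 and 0.956% of all genes. The median log2 difference was 1.68, with the call of HSPB1 resting on replicates 4 and 5. Without HSP70.2, whose value there belongs to the rule, 6 of the other 7 were called and their median was 1.42. Over all 8 the median was 0.43 in replicate 1 and between -0.40 and 0.01 in replicates 3 to 6. Summed over the list, rescaled TPM were 5627 in replicate 2 and 1627 to 2218 in the others. Over all 12130 genes the median log2 difference in replicate 2 was 0.17, so the library as a whole was shifted slightly upward on this scale.

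The members listed as constitutive in the cytosol moved less by their median. Of 18 members, 3 were called higher in replicate 2 and 0 lower, against 5.73 and 0.956% of all genes. The median log2 difference was 0.20. Besides HSP90AB1, HSPA8, HSPA4, HSPA14 and HSPA1L the list held only DNAJ genes, so its median rests mostly on those. Where each DNAJ product lies in the cell was not examined, so cytosolic is only the name of the list. Its summed rescaled TPM was 4115 in replicate 2 and 2355 to 2904 in the others. The difference between the medians of the heat-inducible and constitutive lists in replicate 2 was 1.48, or 1.21 without HSP70.2. It depends on how the lists were drawn up. HSPA8 (chr9:49982278-49986760, reverse strand) was at 633, 1665, 286, 708, 1119 and 456, a log2 difference of 1.39 in replicate 2. Its 6 values were spread widely even without replicate 2, from 286 in replicate 3 to 1119 in replicate 5, and its CV (the SD divided by the mean) over those 5 libraries was 0.489.

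HSPA4, an HSP110 relative that serves as nucleotide exchange factor, was at 164, 335, 162, 119, 166 and 179, a log2 difference of 1.03. Replicate 2 lay well outside the range of the other 5, although the difference barely passed the call and the call was lost in deposited TPM and under median-centring. HSPA1L, known mainly from testis, was at 3.49, 6.72, 1.42, 1.20, 1.34 and 2.61, a log2 difference of 1.67. Its call was lost in deposited TPM and under quantile normalization. Its order over libraries resembled that of HSP70.2 at a far lower level, and it overlaps HSP70.2 on the opposite strand. The libraries were made with a stranded protocol, but the sources used here do not say whether the authors' quantification used strand.

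HSP90AB1 was at 788, 1101, 818, 737, 829 and 788, with a log2 difference of 0.48 that was not called, although replicate 2 was again the highest. HSPA14, a ribosome-bound HSP70, was at 24.1 in replicate 2 and 23.3 to 32.3 in the others. Just inside the call lay HSPA4 at 1.03 and HSPB1 at 1.11. Just outside it lay HSPB8 at 0.91, HSPA5 at 0.90 and HSPE1 at 0.89.

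**Figure D3:**
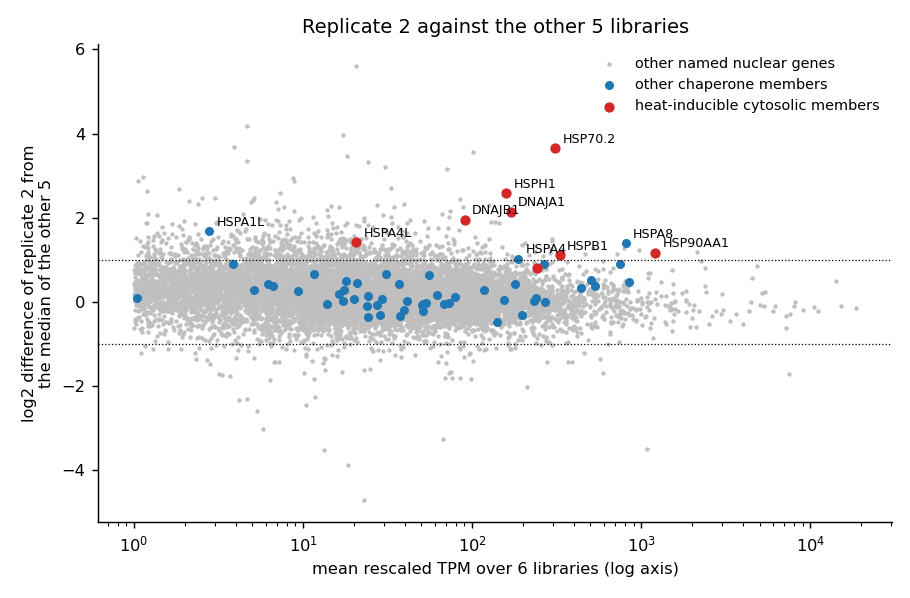
Log2 difference of replicate 2 from the median of the other 5 libraries (vertical axis) against mean rescaled TPM (horizontal log axis) for 12130 named nuclear genes. Grey points are other genes, red points the 8 heat-inducible cytosolic members, blue points the other members, and dotted lines mark 2-fold; HSP70.2 at 3.65 and HSPH1 at 2.58 lie above most genes of like abundance.

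The ER members were not called in replicate 2. Of 11 with a mean of at least 1, 0 were higher and 0 lower, against 5.73 and 0.956% of all genes. In so short a list, 0 calls is close to those shares. The median log2 difference was 0.05. HSPA5, the HSP70 of the ER, was at 206, 405, 200.0, 257, 299.6 and 217, so replicate 2 was highest at a log2 difference of 0.90. HSP90B1 was at 402, 672, 518, 451, 521 and 468, a log2 difference of 0.52. DNAJB9, a DNAJ induced by ER stress, was lowest in replicate 2, at 107 against 129.7 to 163, a log2 difference of -0.49. HSPA13, a microsomal HSP70, was at 74.6 and 72.8 in replicates 4 and 5 and at 34.3 to 43.4 in the others. Of the ER stress genes outside the member families, 20 had a mean of at least 1, none of them was called in replicate 2, and their median log2 difference was 0.28.

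The mitochondrial members were not called in replicate 2 either. Of 9, 0 were higher and 0 lower, again close to the 5.73 and 0.956% of all genes in so short a list. The median log2 difference was 0.01. HSPD1 was at 478, 645, 544, 447, 597 and 499.5. HSPA9, the mitochondrial HSP70, was among the least variable members, at 221, 272, 295, 271, 267 and 283 with a CV of 0.0948. HSPE1 did not follow its partner HSPD1 over the libraries. It was at 418, 788, 425, 869, 1609 and 406, with replicate 5 highest, and was called higher in replicate 4 and in replicate 5. Of the mitochondrial protease and import genes outside the families, 9 were measured, none was called in replicate 2, and their median log2 difference was -0.12.

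**Figure D4:**
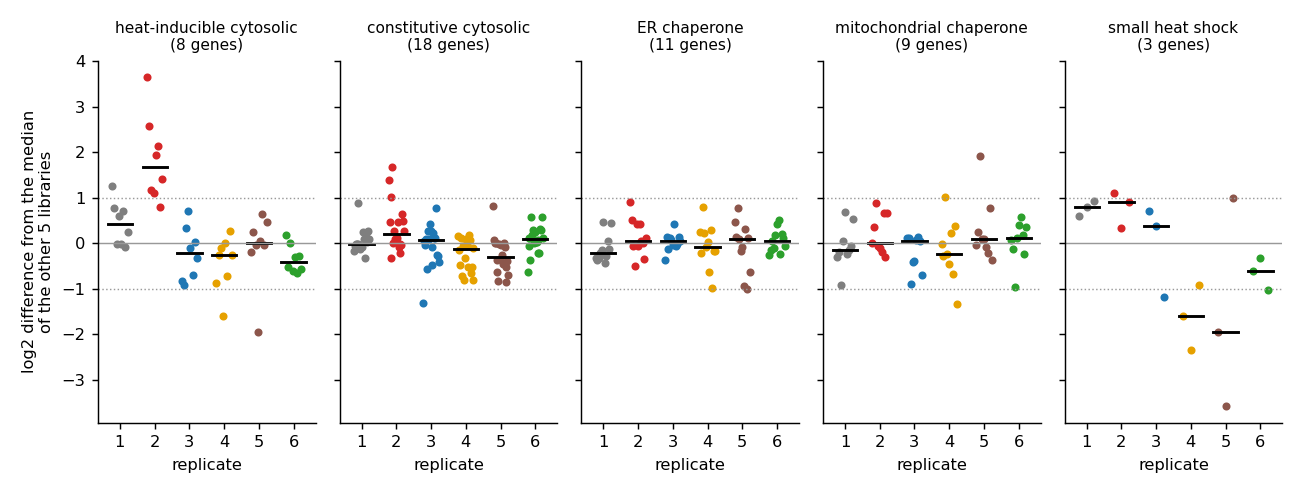
Log2 difference of each library from the median of the other 5 (vertical axis) for members of each role, by replicate (horizontal axis). Points are genes with a mean of at least 1, black bars their medians and dotted lines 2-fold; HSPB1 appears in both the heat-inducible and the small heat shock panels. The heat-inducible panel has its highest median in replicate 2 at 1.68, and the small heat shock panel its lowest medians in replicates 4 and 5 at -1.59 and -1.94.

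Calls in the other libraries were fewer. In replicate 1, 2 of 59 members (3.39%) were higher, HSP70.2 and DNAJB13, against 4.67% of all genes, and 0 were lower, against 0.973%. In replicate 3, 0 were higher, against 1.37%, and HSPA8 and HSPB8 were lower (3.39%), against 2.19%. In replicate 6, 0 were higher, against 2.61%, and HSPB8 was lower (1.69%), against 1.28%. These shares were near those of all genes.

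In replicate 4, HSPE1 was higher (1.69%), against 2.09% of all genes, and HSPB6, HSPB1 and DNAJC28 were lower (5.08%), against 21.4%. In replicate 5, HSPE1 was higher (1.69%), against 3.02%, and HSPB6 and HSPB1 were lower (3.39%), against 25.4%. In rescaled TPM, a smaller share of members than of all genes was thus low in the libraries that stood apart. The median log2 difference of all genes was itself -0.41 in replicate 4 and -0.46 in replicate 5. Over the libraries besides replicate 2, calls in either direction were rarer among members than all genes under median-centring (7.80% against 9.69%). In deposited TPM such calls were more frequent among members (38.0% against 34.5%), so the comparison depends on the scaling. HSPB6 was at 811, 591, 616, 115, 48.5 and 469.9 in replicates 1 to 6, and its log2 difference was -2.35 in replicate 4 and -3.58 in replicate 5. Summed levels of 9 smooth muscle markers, which cells of vessel walls share with HSPB6, were 591 and 618 in replicates 4 and 5 and 808 to 1243 in the others. Their part in the low values was not tested.

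Ratios of paired chaperones within a library need no scaling, since both genes share the total of the library. The ratio of inducible HSP70.2 to cognate HSPA8 was 0.385, 0.766, 0.223, 0.0883, 0.0900 and 0.250 in replicates 1 to 6. The deposited value of HSP70.2 was thus below that of HSPA8 even in replicate 2. Since that value may sum or split HSP70.2 and its near copy, the order of inducible and cognate HSP70 there is not settled. HSP90AA1 to HSP90AB1 was 1.98 in replicate 2 and 1.15 to 1.51 in the others. HSPH1 to HSPA4 was 1.5 in replicate 2 and 0.327 to 0.874 in the others, so HSPH1 was above HSPA4 in that library only. The pairs of an inducible DNAJ gene with another DNAJ gene had the same highest library. DNAJA1 to DNAJA2 was at 1.84 against 0.334 to 0.837 and DNAJB1 to DNAJB6 at 3.5 against 0.688 to 1.20. HSPE1 to HSPD1 behaved otherwise, at 1.95 and 2.69 in replicates 4 and 5, 1.22 in replicate 2, and 0.782 to 0.874 in replicates 1, 3 and 6. These pairs were chosen after the values were seen.

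**Figure D5:**
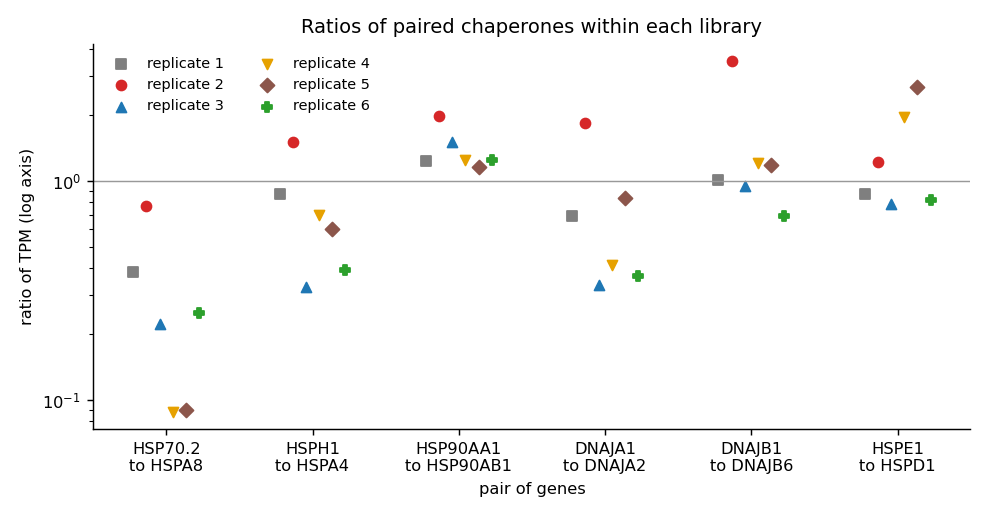
Ratio of TPM (vertical log axis) of 6 pairs of chaperone genes in each of the 6 libraries, with 1 symbol and colour per replicate and a grey line at equal levels. Replicate 2 (red circles) has the highest ratio in the first 5 pairs, for example 0.766 for HSP70.2 to HSPA8, and replicate 5 the highest, 2.69, for HSPE1 to HSPD1.

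Variation between pigs was examined next. The median CV was 0.250 for the 59 members and 0.327 for the 12130 genes, and 11 members (18.6%) had a CV over 0.5, against 22.9% of all genes. HSP70.2 had the largest CV of these members at 1.54, which was 0.636 without replicate 2, followed by HSPH1 at 1.08. The 5 DNAJ genes of largest CV were DNAJB13 (0.963), DNAJB1 (0.832), DNAJA1 (0.765), DNAJC6 (0.429) and DNAJC28 (0.383). DNAJB13, an axonemal protein, had levels of 0.113 to 2.63, near the minimum, and DNAJC6, which strips clathrin from vesicles, had 7.21 to 23.5. By list, the median CV was 0.670 for heat-inducible members, 0.293 for mitochondrial, 0.184 for ER and 0.182 for constitutive members. Without replicate 2, the library of the rule, the CVs of heat-inducible members ran from 0.0905 for DNAJB1 to 0.636 for HSP70.2. Those of DNAJA1, HSPH1 and HSPB1 were then 0.286, 0.384 and 0.565. The value of 0.670 thus rests largely on replicate 2. For the small heat shock list, HSPB1 included, it was 0.575. Of the 11 members outside all 5 lists, which include HSPA12A, HSPA12B, HSPBP1, HSPBAP1 and DNAJB6, none was called in replicate 2. There 5.73% of all genes were higher, and the log2 differences of these 11 members lay between -0.34 and 0.44. DNAJC7 stood apart upward in replicate 3, at 307 against 209.9 to 244, and DNAJC9 downward, at 17.9 against 24.1 to 27.2.

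Genes that work with HSF1 or with the chaperones, but are not members, were taken as a further list of 38 measured genes. In replicate 2, 4 of them were higher and 0 lower, against 5.73 and 0.956% of all genes. Their median log2 difference was 0.17, equal to that of all genes. CHORDC1, an HSP90 co-chaperone, was at 80.1, 259.8, 30.2, 42.5, 53.8 and 66.1 in replicates 1 to 6, a log2 difference of 2.25, and RefSeq places a run of alternating heat shock units before it, shown here because its level was the highest of this list relative to other libraries.
CHORDC1, chr9:23208721-23208750, reverse: ccgGAAAATTCGCGAAGGTTCCTGAAacgg

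STIP1, which links HSP70 to HSP90, was at 127 in replicate 2 and 38.8 to 66.7 in the others, a log2 difference of 1.31. BAG2, a nucleotide exchange factor, was at 16.4 against 5.40 to 8.11, a log2 difference of 1.29. HMOX1, the haem-degrading enzyme, was at 54.0 against 7.35 to 35.5, a log2 difference of 1.40. The other 34 genes, among them HSF1, BAG3, CRYAB and the CCT chaperonin subunits, were not called.

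Lists of other cell types and of early response genes were also examined in replicate 2, where 5.73% of all genes were higher. Of 20 immediate early genes, which are transcribed within minutes of a stimulus, 6 were higher (NR4A3, NR4A1, EGR3, ATF3, NR4A2 and EGR2), with a median log2 difference of 0.80, and their summed level was 4152 against 2184 to 3630.4. Of 9 smooth muscle markers, 3 were higher (CNN1, ACTA2 and ACTG2) and 0 lower, and the summed level was 1243 against 591 to 1034. Their median log2 difference was 0.66, against 0.52 in replicate 1. DES and TAGLN went the other way, at -0.93 and -0.02. ACTG2 and MYH11 were higher still in replicate 1, at 54.3 and 160.3 against 41.5 and 115. Of 6 endothelial markers, TEK and KDR were higher, and the summed level was 1494 against 692 to 1254. Of 8 skeletal muscle markers with a mean of at least 1, ACTA1 was higher, the summed level of the 12 found was 30.1 against 10.4 to 25.5, and the median log2 difference of 0.53 was below the 0.56 of replicate 1. Of 6 lymphoid markers with that mean, MS4A1 was higher, and the summed level over the 8 found, 40.9, was close to the 39.6 of replicate 1.

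The 11 adipocyte, 9 macrophage and 8 fibroblast markers had no gene called in replicate 2, with medians of -0.17, -0.05 and -0.05. The skeletal muscle genes MYH1, MYH2, MYH4 and MYH7 were not among the named genes, so the presence of muscle rests on the other markers. The part of cell composition in the values of replicate 2 was not tested.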

How the data were processed

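Total RNA was depleted of ribosomal RNA, made into stranded libraries and sequenced on an Illumina instrument. The authors quantified it with kallisto 0.43.0 (Sscrofa11.1 per the submitters' notes) and deposited gene TPM, which sum to the same total in each library and keep no read depth. Members and gene lists were chosen with earlier results of these data known. Symbols came from a name table matched by gene ID. TPM of 14844 named nuclear genes, without 13 mitochondrially encoded genes, were rescaled to 1000000 per library. Differences were log2(rescaled TPM + 1) in a library minus the median of the other 5, over the 12130 genes whose mean was 1 or more, and a call needed a difference of 1. This step was tested on simulated data. With a single group, no test between groups was run.

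Genes named were all HSP members, the 5 DNAJ members of highest mean and of highest CV, those called in replicate 2 or standing apart by Dixon's criterion, the 10 genes of largest difference in replicate 2, and called genes of the 3 network lists. Other genes were named after their values were seen. Coordinates and sequences are from RefSeq on Sscrofa11.1, matched by symbol. Elements were searched in the 500 bases before the gene start (pysam 0.24.0) and near copies with blastn 2.17.0. Analyses used Python 3.11.15 and pandas 2.3.3. Alternatives were 4 scalings, a pseudocount of 0.1, no minimum or a minimum of 10, the mean of the other libraries, calls at 1.5-fold and 4-fold, and libraries left out.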

Additional observations from a re-analysis of the deposited data

Results flagged for a closer look

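Of 70 values examined over the 6 libraries (59 members, 6 ratios and 5 summed lists), 14 had a highest or lowest library whose gap to the next, as a share of the whole range, was above Dixon's 95% critical value for 6 samples. Chance marks about 1 in 20 such groups, and 4.83% of the 12130 named nuclear genes were marked. The set was chosen on the HSP70.2 value of replicate 2, so its mark, that of the sum that contains it and the number of marks in that library follow from or were known at the choice and are descriptions only. The 10 members marked included 8 that were highest in replicate 2. These were HSP70.2 at 1275, with 244 next, HSP90AA1 at 2177, with 1237 next, HSP90AB1 at 1101, with 829 next, and HSPH1 at 502, with 143 next. They also included DNAJA1 at 426, with 158 next, HSPA4 at 335, with 179 next, DNAJB1 at 243, with 64.3 next, and HSPA4L at 42.2, with 21.5 next. HSPA8, HSPA1L and HSPB1 were called higher in replicate 2 but were not marked. The other 2 members were set apart by replicate 3, DNAJC7 upward at 307, with 244 next, and DNAJC9 downward at 17.9, with 24.1 next.

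In replicate 2 the ratio of DNAJA1 to DNAJA2 was marked at 1.84, with 0.837 next, and that of DNAJB1 to DNAJB6 at 3.5, with 1.20 next. The summed levels of heat-inducible cytosolic members at 5627, with 2218 next, and of constitutive cytosolic members at 4115, with 2904 next, were also marked there. Members of 1 family in 1 library are not independent.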

How the results depend on the processing

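Of 91 values recomputed under alternatives, 80 stayed within 1 SD between libraries (for counts and the median CV, within 1.5 times) and 11 moved further, none with a change of sign. In replicate 2, HSP70.2 differed by 3.47 to 4.12 on the log2 scale, and the heat-inducible minus constitutive difference was 1.21 to 1.58. At 2-fold, 7 to 11 members were higher and 0 lower, while 2.71 to 13.4% of all genes were higher. The counts of 11 came where that share was 8.15 to 13.4%. HSP70.2, HSPH1, DNAJA1, DNAJB1, HSPA4L and HSPA8 were called under all of the 12 alternatives of scaling, pseudocount, reference and libraries, HSP90AA1 under 11, HSPA1L and HSPA4 under 10 and HSPB1 under 8. HSPB6 and HSPB8, not called in rescaled TPM, were called under 4 and 2 of them.

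The median of the members' means was 51.4, and the median member level of each library had an SD of 1.74 between libraries. That median of means was 9.39 in deposited TPM and 55.6 under median-centring. It was 59.2 when ribosomal protein and small RNA genes were left out and 65.4 at a minimum of 10. Without 1 library at a time it was 51.7 to 54.5. The median CV was 0.666 in deposited TPM and 0.196 to 0.274 without 1 library. Members higher in replicate 2 numbered 17 at 1.5-fold (28.8% against 19.0% of all genes) and 3 at 4-fold (5.08% against 0.429%). Calls in the other 5 libraries numbered 12 (4.07% of member values, against 13% over all genes). They numbered 112 in deposited TPM (38.0% against 34.5%) and 23 under median-centring (7.80% against 9.69%), scalings added after the data were seen. A window of 250 bases was also added then. In it 15 members (24.6%) held a 2-unit element, against 10.7% of all genes. The 500 bases gave 23 members (37.7%) against 22.1%. The causes were not tested. Median-centring moved the median of all genes in replicate 2 from 0.17 to -0.01. No paired analysis was possible because the pigs form 1 group. The unknown depth limits low members such as HSPA1L, and the near copy limits HSP70.2.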
